A study of Mus musculus with 2 samples.

Results

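The genes described here were 8 transcription factors of the lung mesenchyme, *Tbx2*, *Tbx3*, *Tbx4*, *Tbx5*, *Tcf21*, *Foxf1*, *Foxf2* and *Meox2*. They were chosen by name, and each had a row in both count tables, so that 8 of the 26867 genes listed in either batch are covered. The cells came from whole lung of wild-type (wt) C57BL/6J mice at postnatal day 1 (PND1), with 1 mouse in each of 2 batches. All cells shared that genotype and age, and no treatment was compared. Drop-seq counts transcripts as unique molecular identifiers (UMIs) in droplets that each hold a bead and, in most cases, a single cell. Both lungs were minced, digested with TrypLE and collagenase, treated to lyse red blood cells and settled on ice before droplets were made, so the share of each cell type reflects what survived these steps.

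The mesenchyme of the lung gives rise to fibroblasts, pericytes, smooth muscle and the myofibroblasts of the growing alveolar septa. T-box factors bind DNA through a shared domain; *Tbx4* and *Tbx5* are known for their part in the branching of the lung bud, and *Tbx2* and *Tbx3* act mainly as repressors. *Tcf21* is a basic helix-loop-helix factor of organ mesenchyme, *Foxf1* and *Foxf2* are forkhead factors downstream of hedgehog signals from the epithelium, and *Meox2* is a homeobox factor of mesodermal tissue. *Foxf1* is also required for the capillary bed of the lung, so the blood endothelium was set beside the mesenchyme.

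Cells with at most 10% of their UMIs from mitochondrial genes were kept, which left 2388 of 2389 cells in Batch 1 and 5615 of 7555 in Batch 2. The median cell held 1386.5 and 2014 UMIs, and the batches shared 0 cell barcodes. Clusters were made without the 8 genes and named by marker genes, as "like" the type whose markers they carried. The matrix fibroblasts (931 and 1245 cells in Batch 1 and Batch 2) were split into an alveolar type with *Inmt* (880 and 1201) and a collagen-rich type with *Dcn* but nearly without its marker *Sfrp2* (51 and 44 cells, 2 and 1 UMIs of *Sfrp2*). The mural cells (76 and 246) were split into pericytes with *Pdgfrb* (64 and 156) and vascular smooth muscle (12 and 90), and the myofibroblast group (166 and 419) into myofibroblasts with *Pdgfra* (35 and 168) and an *Actg2*-positive airway smooth muscle type (131 and 251). The blood endothelium (545 and 1455) held the aerocytes with *Car4* (49 and 167), general capillary cells (456 and 1148), and arterial and venous cells.

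Some limits of these classes touch the values below. Of the airway smooth muscle cells that a cell list of the study named in Batch 1, 62 of 100 were listed as myofibroblasts. That list named 79 cells of Batch 1 as MatrixFB-2, the study's collagen-rich subtype. Of these, 44 lay in the collagen-rich class here and 24 in clusters left unnamed. The vascular smooth muscle class of Batch 2 also held heart muscle transcripts (*Myl7*, 10.3 UMIs per 10000, against 0 UMIs in Batch 1), and whether heart cells took part in its values was not tested. The alveolar-type matrix fibroblasts of Batch 1 lay mostly in a cluster of 842 cells and those of Batch 2 mostly in another of 1057 cells. In Batch 1, 27 of 42 listed cells of the erythroid class had been listed as MatrixFB-1 and 3 as MatrixFB-2. Both are matrix fibroblast subtypes of the study, so the erythroid class was not used as a background.

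The genes lie on 6 chromosomes, given here on GRCm38 with GENCODE gene limits. *Tbx2* (chromosome 11, 85832551 to 85841948) and *Tbx4* (85886422 to 85916097) are both on the plus strand, with 44473 bases between them. *Tbx3* (chromosome 5, 119670669 to 119684724) and *Tbx5* (119832668 to 119885219) form a second pair on the plus strand, 147943 bases apart. *Foxf1* (chromosome 8, 121084386 to 121088144, plus strand) starts 1276 bases from the long non-coding RNA gene *Fendrr* (121054882 to 121083110), which runs the other way. *Tcf21* lies on chromosome 10 (22817281 to 22820174, minus strand), *Foxf2* on chromosome 13 (31625816 to 31631403, plus strand) and *Meox2* on chromosome 12 (37108540 to 37179534, plus strand).

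Promoter sequence from RefSeq (GRCm38.p6) was at hand for 4 of the 8 genes, *Tcf21*, *Meox2*, *Tbx4* and *Foxf2*, and for *Fendrr*; *Tbx2*, *Tbx3*, *Tbx5* and *Foxf1* had no entry. The 250 bases before the start are printed to set the promoters of genes highest in matrix fibroblasts (*Tcf21*, *Meox2*) beside those of genes highest in mural cells or myofibroblasts (*Tbx4*, *Foxf2*) and the promoter beside *Foxf1*. Capitals mark matches to AGGTGT (the core of the T-box site), GTAAACA (a forkhead core) or CANNTG (the E-box bound by helix-loop-helix factors such as *Tcf21*), searched on both strands. The *Tcf21* promoter is chr10:22820144-22820393 (minus strand), that of *Meox2* chr12:37108290-37108539 (plus), that of *Tbx4* chr11:85896515-85896764 (plus), that of *Foxf2* chr13:31625566-31625815 (plus) and that of *Fendrr* chr8:121083111-121083360 (minus). The *Tbx4* window lies inside the GENCODE limits of the gene, since RefSeq places that start downstream. The *Tcf21* window overlaps the GENCODE gene in part, from 22820144 to 22820174.
Tcf21: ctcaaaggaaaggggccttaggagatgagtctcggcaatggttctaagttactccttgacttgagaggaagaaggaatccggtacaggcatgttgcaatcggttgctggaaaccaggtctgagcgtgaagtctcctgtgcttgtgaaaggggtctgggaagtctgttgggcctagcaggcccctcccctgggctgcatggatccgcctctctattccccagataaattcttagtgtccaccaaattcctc
Meox2: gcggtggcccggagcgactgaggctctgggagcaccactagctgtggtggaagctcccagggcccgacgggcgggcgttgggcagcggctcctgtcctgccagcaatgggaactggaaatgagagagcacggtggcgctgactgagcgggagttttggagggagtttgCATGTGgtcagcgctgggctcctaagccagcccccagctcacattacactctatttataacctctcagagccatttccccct
Tbx4: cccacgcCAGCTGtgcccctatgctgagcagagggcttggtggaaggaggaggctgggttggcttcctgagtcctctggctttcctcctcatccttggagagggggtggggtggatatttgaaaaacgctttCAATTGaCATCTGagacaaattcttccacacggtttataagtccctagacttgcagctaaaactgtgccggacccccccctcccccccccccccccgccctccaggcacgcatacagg
Foxf2: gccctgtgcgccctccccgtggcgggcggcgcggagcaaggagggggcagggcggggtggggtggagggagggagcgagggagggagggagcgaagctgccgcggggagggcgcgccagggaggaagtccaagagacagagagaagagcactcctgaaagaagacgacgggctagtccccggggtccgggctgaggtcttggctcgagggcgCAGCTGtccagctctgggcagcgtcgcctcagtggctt
Fendrr: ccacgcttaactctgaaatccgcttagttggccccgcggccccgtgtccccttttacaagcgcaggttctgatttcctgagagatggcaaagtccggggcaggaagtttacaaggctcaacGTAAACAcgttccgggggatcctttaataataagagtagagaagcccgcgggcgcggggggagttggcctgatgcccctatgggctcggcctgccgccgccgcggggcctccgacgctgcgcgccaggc

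AGGTGT was in none of the 5 windows and in 11.8% of 32851 RefSeq promoters of this length. The E-box, present in 66.2% of all promoters, matched 3 times in *Tbx4*, once each in *Foxf2* and *Meox2*, and not in *Tcf21*. GTAAACA, present in 3.17% of all promoters, matched once in *Fendrr* alone among the 5. *Meox2* and *Tbx4* each held a TATAAA (12.4% of all promoters), and CCAAT (33.8%) was in none; neither is capitalised. The GC content was 52.4% in *Tcf21*, the median of all promoters, and 58.4% in *Tbx4*, 62.0% in *Meox2* and *Fendrr* and 71.6% in *Foxf2*. These matches describe letters and not binding.

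*Tcf21* was the most abundant of the 8 genes and was highest in the matrix fibroblasts, most of which were of the alveolar type. Levels are given as UMIs of the gene per 10000 UMIs of the class, within a batch, and detection as the percentage of cells in which a UMI of the gene was counted. *Tcf21* stood at 26.2 (95% exact Poisson interval 25.4 to 27.1) in Batch 1 and 20.1 (19.5 to 20.7) in Batch 2, with detection in 89.7% and 89.5% of matrix fibroblasts. Mural cells came next among the 4 classes, at 2.95 and 1.34, then myofibroblasts at 0.71 and 0.30 and blood endothelium at 0.38 and 0.15. Matrix fibroblasts thus lay above each other class in both batches, with no overlap, and held 90.0% and 89.1% of all *Tcf21* UMIs. Intervals cover counting error alone.

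Free RNA can give UMIs in cells that do not make a transcript. Immune cells, which are no part of the mesenchyme, had a median depth of 1390 and 1828 UMIs against 1303 and 1720 in matrix fibroblasts. They showed *Tcf21* in 7.34% and 4.17% of cells, at 1.45 and 0.26 per 10000. The 45 UMIs of Batch 1 lay in 13 cells. The study's list held 117 myeloid cells of that batch, 6 of them as mixtures of immune cells and fibroblasts and 1 as a matrix fibroblast. Whether free RNA or such mixtures gave these UMIs was not tested. Epithelium, at 0.35 and 0.053, was lower. Mural cells lay above both in each batch, and myofibroblasts lay above epithelium in each batch but below the immune cells of Batch 1. Blood endothelium was close to epithelium in Batch 1 and below the immune cells in both batches. With every cell thinned to 600 UMIs and none left out, *Tcf21* was detected in 73.9% and 64.8% of matrix fibroblasts and 3.39% and 1.90% of immune cells.

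*Meox2* followed *Tcf21* in class but not in amount, and it differed between the mice. It stood at 3.06 (2.77 to 3.37) in Batch 1 and 0.69 (0.59 to 0.81) in Batch 2 in matrix fibroblasts, with detection in 30.4% and 10.8% of cells. The highest of the other 3 classes was mural, at 0.31 and 0.058 from 3 UMIs in each batch. The gap between batches was also present within the main clusters of the alveolar type. In the cluster that was mostly of Batch 1 (842 and 110 cells), *Meox2* was 3.37 and 0.49. In the one that was mostly of Batch 2 (24 and 1057 cells) it was 2.35 and 0.73, so the 2.35 rests on few cells. The third held 14 and 34 cells, with *Meox2* at 0.88 and 0.66 from 2 and 4 UMIs, too few to show a gap. A single mouse per batch does not let mouse, library and day be told apart.

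**Figure D1:**
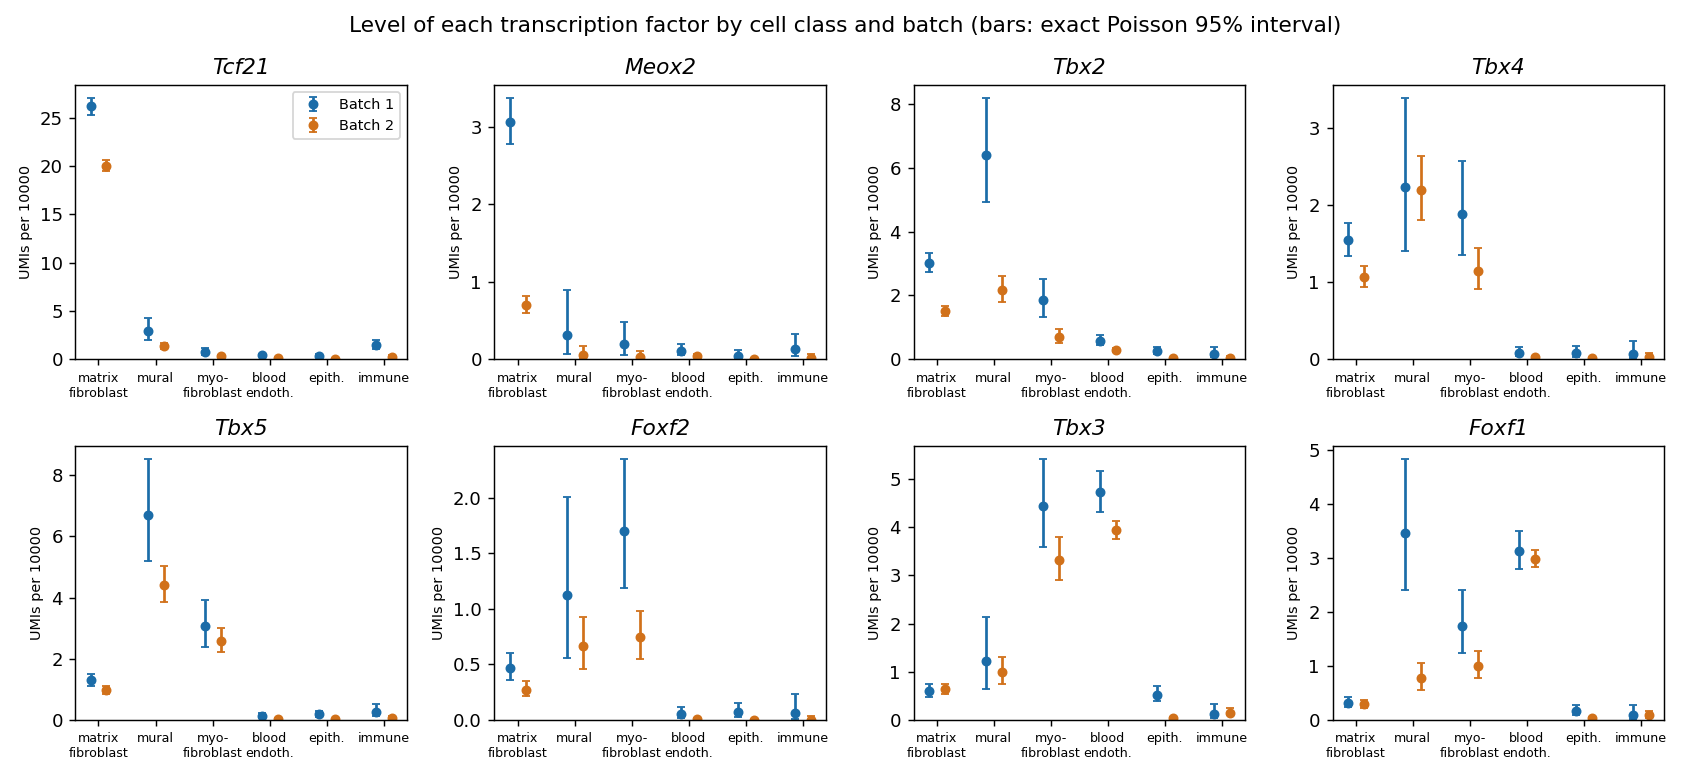
UMIs per 10000 of each of the 8 genes (a panel each) by cell class, with Batch 1 and Batch 2 side by side and bars for the exact Poisson 95% interval. *Tcf21* and *Meox2* are highest in matrix fibroblasts, *Tbx2*, *Tbx4* and *Tbx5* in mural cells, and *Tbx3* in blood endothelium in both batches.

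*Tbx5*, *Tbx4* and *Tbx2* were highest in mural cells and, within these, in pericytes, the cells that wrap capillaries. *Tbx5* stood at 6.72 (5.19 to 8.55) and 4.41 (3.85 to 5.02) in mural cells, 3.07 and 2.59 in myofibroblasts, 1.31 and 0.98 in matrix fibroblasts and 0.14 and 0.037 in blood endothelium. The order was the same in both batches, and neighbouring classes did not overlap between batches. Pericytes reached 8.71 and 6.19, with detection in 46.9% and 60.3% of cells.

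*Tbx4* differed less between the mesenchymal classes. It was 2.24 (1.40 to 3.39) and 2.19 (1.81 to 2.64) in mural cells, 1.89 and 1.15 in myofibroblasts and 1.54 and 1.07 in matrix fibroblasts, and 0.077 and 0.023 in blood endothelium. The myofibroblast and matrix fibroblast values overlapped between batches, and thinned to 600 UMIs the myofibroblasts of Batch 1 (2.01) lay just above the mural cells (1.97). Endothelial *Tbx4* was near the immune value of 0.064 and 0.025.

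*Tbx2* was 6.41 (4.93 to 8.20) and 2.17 (1.79 to 2.62) in mural cells, 3.02 and 1.50 in matrix fibroblasts, 1.84 and 0.70 in myofibroblasts and 0.58 and 0.28 in blood endothelium. Each class was lower in Batch 2, and across batches the mural and matrix fibroblast values overlapped. Pericytes held 8.31 and 2.86. Myofibroblasts lay below matrix fibroblasts for *Tbx2* in both batches, the reverse of *Tbx5*.

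*Foxf2*, the less abundant of the forkhead members, was highest in myofibroblasts. It was 1.70 (1.19 to 2.35) and 0.74 (0.55 to 0.98) there, 1.12 and 0.66 in mural cells, 0.47 and 0.27 in matrix fibroblasts and 0.048 and 0.0046 in blood endothelium. The myofibroblast and mural values overlapped between batches, while both lay above matrix fibroblasts within each batch. Immune cells held 2 and 0 UMIs of *Foxf2*.

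Among the broad classes, *Tbx3* in both batches, and *Foxf1* in Batch 2, were highest in blood endothelium. *Tbx3* was 4.72 (4.31 to 5.16) and 3.94 (3.76 to 4.13) in blood endothelium, with detection in 47.7% and 47.0% of cells, against 2.26% and 2.85% of immune cells. The myofibroblast group was close behind at 4.43 (3.58 to 5.43) and 3.33 (2.90 to 3.80), with intervals that overlapped the endothelial ones. Within that group, myofibroblasts without the airway smooth muscle type held 6.51 and 3.65, the first above the blood endothelium of its batch. Mural cells (1.22 and 0.99) and matrix fibroblasts (0.60 and 0.63) were lower. Blood endothelium held 58.3% and 75.6% of all *Tbx3* UMIs. With the subtypes listed by the study for Batch 1, myofibroblasts and not endothelium had the highest *Tbx3*.

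*Foxf1* was 3.13 (2.80 to 3.49) and 2.98 (2.82 to 3.15) in blood endothelium, with detection in 35.2% and 42.7% of cells. Mural cells held 3.46 (2.40 to 4.84) in Batch 1 but 0.78 (0.55 to 1.06) in Batch 2. The rest of the order was myofibroblasts at 1.75 and 1.00 and matrix fibroblasts at 0.32 and 0.29, with no overlap between them. The batches therefore disagree on whether mural cells reach the endothelial level. Pericytes alone gave 4.49 and 1.26.

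Most cells of the mesenchyme held at least 1 of the 8 transcripts. No member was detected in 5.91% and 5.46% of matrix fibroblasts, 22.4% and 21.1% of mural cells, 24.7% and 32.0% of myofibroblasts and 33.4% and 34.0% of blood endothelial cells. In epithelium, none was detected in 76.3% and 92.2% of cells, although its median depth was higher, at 2131 and 3530.5 UMIs. At least 2 members were found in 65.4% and 56.1% of matrix fibroblasts and 7.17% and 0.69% of epithelial cells.

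The finer classes divided the genes more sharply than the broad ones. Alveolar-type matrix fibroblasts carried *Tcf21* at 28.3 and 20.9, and collagen-rich matrix fibroblasts carried it at 2.66 and 5.68. Pericytes held 3.69 and 1.90, so the collagen-rich type lay below them in Batch 1 and above them in Batch 2. *Foxf2* had 64 and 64 UMIs in the alveolar type and 0 and 0 in the collagen-rich type, where a count of 0 allows up to 0.27 and 0.24 per 10000. In the fit over 16 finer classes (edgeR, 8132 genes tested), 5 of the 8 genes were higher in the alveolar type, where 5.66% of all genes tested were called. These were *Tcf21* (log2 fold change 2.48, SE 0.49, adjusted p = 0.00052), *Tbx2* (2.57, SE 0.62), *Tbx4* (2.33, SE 0.65), *Meox2* (1.83, SE 0.57) and *Foxf2*, whose fitted fold against 0 UMIs is no bound and is not given. The collagen-rich levels behind these calls rest on few UMIs: 5 and 5 of *Tbx2* (0.44 and 0.40 per 10000), 6 and 1 of *Tbx4* (0.53 and 0.080) and 6 and 6 of *Meox2* (0.53 and 0.48). The log2 difference within Batch 1 and within Batch 2 was 3.63 and 2.11 for *Tcf21* and 2.91 and 2.13 for *Tbx2*. It was 1.72 and 3.71 for *Tbx4* and 2.70 and 0.76 for *Meox2*, so these differences part between the mice. Within-batch differences, here and below, add a small count to each gene and scale each batch on its own, unlike the fit. *Foxf1*, *Tbx3* and *Tbx5* did not pass. None of the 5 calls held without the batch term in the fit or with DESeq2 (*Tcf21*, adjusted p = 0.086 and 0.128), and the collagen-rich class had few cells.

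Within the mural class, 7 of the 8 genes were higher in pericytes than in vascular smooth muscle in both batches, and *Meox2*, on 3 UMIs or fewer, was higher there in Batch 1 alone. The 12 vascular smooth muscle cells of Batch 1 held 0 UMIs of *Tbx2*, *Tbx4*, *Tbx5*, *Foxf1*, *Foxf2* and *Meox2* among 22473 UMIs, which allows up to 1.33 per 10000 each. The 90 cells of Batch 2 held *Tbx5* at 1.91, *Tbx2* at 1.21 and *Tbx4* at 0.56, each below the pericyte value of that batch, and the *Tbx2* and *Tbx4* levels are within what the 0 UMIs of Batch 1 allow. Within the myofibroblast group, the myofibroblasts proper exceeded the airway smooth muscle type for *Tbx5* (5.33 and 4.75 against 2.36 and 1.30) and for *Foxf2* (3.55 and 1.14 against 1.12 and 0.51). *Tbx4* had the same order, at 2.76 and 2.03 against 1.61 and 0.63. The cells that the study listed as Smooth Muscle in Batch 1 held a single *Tbx5* UMI, 0.20 per 10000, while those listed as MyoFB-1 held 4.86.

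Among endothelial cells, the aerocytes, flat capillary cells of gas exchange, carried the most *Tbx3*. They reached 12.9 (10.2 to 16.2) and 12.4 (11.1 to 13.9), with detection in 75.5% and 73.1% of cells, against 4.77 and 3.94 in general capillary cells. Arterial cells held 1.35 and 0.74, venous cells 0.60 and 0.28, and lymphatic cells 0 and 0 UMIs, which allows up to 0.43 and 0.23. *Tbx2* also had its endothelial peak in aerocytes, at 3.40 and 1.66 against 0.46 and 0.22 in general capillary cells. *Foxf1* spread over more of the bed, at 4.93 and 5.56 in aerocytes, 3.26 and 3.13 in general capillary cells, 1.35 and 1.34 in arterial cells and 1.56 and 0.82 in venous cells.

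**Figure D2:**
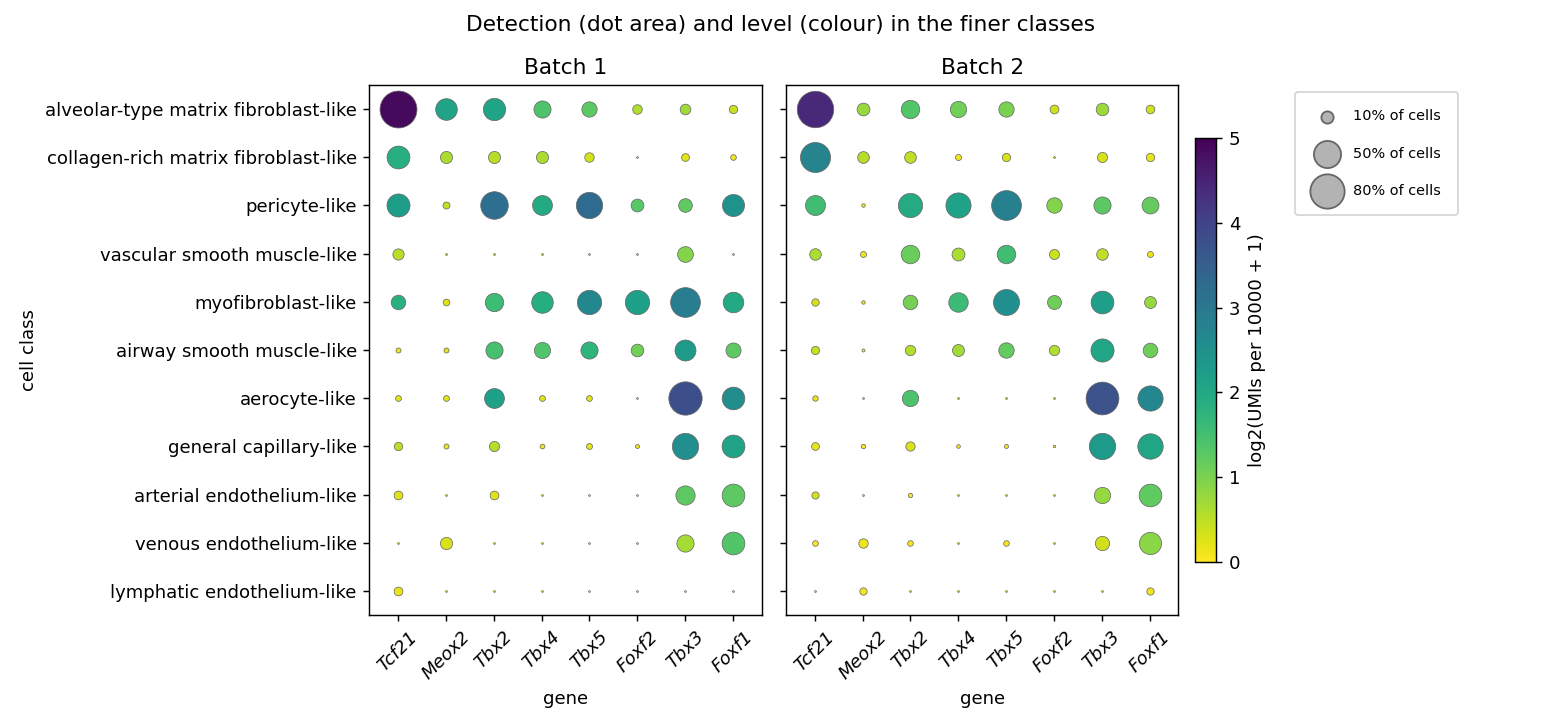
Detection (dot area, share of cells with a UMI) and level (colour, log2 of UMIs per 10000 plus 1) of the 8 genes in 11 finer classes, a panel per batch. The darkest dots of Batch 1 are *Tcf21* in alveolar-type matrix fibroblasts, *Tbx3* in aerocytes and *Tbx2* and *Tbx5* in pericytes; vascular smooth muscle is nearly blank in Batch 1.

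Differences between the broad classes were tested on UMIs summed per class and batch (16 sums, edgeR quasi-likelihood with batch as a term, 10420 genes). All 8 genes passed the filter on low counts. Folds are on TMM-scaled sums and so need not equal the ratio of the levels above. With 1 mouse per batch, n = 2 for each class. The batch term takes out a shift between the mice that all classes share. The p-values therefore measure how far differences between classes part between the 2 mice, pooled over all classes of the fit.

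Against mural cells, matrix fibroblasts were higher for *Tcf21* (log2 fold change 3.86, SE 0.42, adjusted p = 1.1e-06) and *Meox2* (3.70, SE 0.54, adjusted p = 5.0e-05). They were lower for *Tbx5* (-2.02, SE 0.45, adjusted p = 0.0047) and *Foxf1* (-2.15, SE 0.47, adjusted p = 0.0038). The *Foxf1* difference was -2.65 within Batch 1 and -1.09 within Batch 2. That is 4 of 8 members, beside 9.48% of all genes. *Tbx2*, *Tbx3*, *Tbx4* and *Foxf2* had folds from -1.09 to -0.53 and did not pass. Without the batch term 1 of the 8 passed, *Tcf21*.

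Against myofibroblasts, matrix fibroblasts were higher for *Tcf21* (5.97, SE 0.48) and *Meox2* (4.43, SE 0.53) and lower for *Tbx3* (-2.36, SE 0.55, adjusted p = 0.0060) and *Foxf1* (-1.85, SE 0.45, adjusted p = 0.0077). These were 4 of 8 beside 10.2% of all genes. *Tbx4* had a fold of 0.04 (SE 0.37), and *Tbx2*, *Tbx5* and *Foxf2*, at 1.17, -1.12 and -1.40, did not pass either; this does not show that the levels were alike. The *Tbx3* and *Foxf1* calls were lost without the batch term and with classes from marker scores, and *Tcf21* and *Meox2* kept theirs. With no filter on low counts, or fitted with these classes alone, 7 of 8 passed.

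Mural cells and myofibroblasts differed in the fewest members, 2 of 8 beside 6.03% of all genes. *Tbx2* (1.70, SE 0.43, adjusted p = 0.018) and *Tcf21* (2.11, SE 0.47, adjusted p = 0.0072) were higher in mural cells. Both calls were lost without the batch term, with classes from marker scores and with a mitochondrial limit of 5%, and with marker scores *Tcf21* turned to -0.60. *Tbx5* (0.90, SE 0.45) and *Tbx3* (-1.77, SE 0.61) did not pass here.

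The blood endothelium stood apart from each mesenchymal class. Against it, all 8 members were called in matrix fibroblasts (27.7% of all genes), 6 higher and 2, *Tbx3* (-2.69, SE 0.55) and *Foxf1* (-3.25, SE 0.43), lower. *Tcf21* had the widest gap, at 6.76 (SE 0.47, adjusted p = 8.2e-10). In mural cells 6 of 8 were called (17.1% of all genes): *Tbx5* (6.15, SE 0.58), *Tbx4* (5.71, SE 0.50), *Foxf2* (5.54, SE 0.72), *Tbx2* (3.00, SE 0.42) and *Tcf21* (2.90, SE 0.44) higher and *Tbx3* (-2.10, SE 0.59) lower. In myofibroblasts 5 of 8 were called (21.7% of all genes), with *Foxf2* at 5.85 (SE 0.66), *Tbx5* at 5.25 (SE 0.57), *Tbx4* at 5.01 (SE 0.49) and *Tbx2* at 1.30 (SE 0.43), and *Foxf1* lower at -1.41 (SE 0.42). *Tbx3* did not pass between myofibroblasts and endothelium (-0.32, SE 0.52). *Foxf2* rested on 5 and 2 endothelial UMIs, so its folds are loose. The folds of *Tbx4*, *Tbx5* and *Foxf2* against endothelium were smaller within Batch 1 than within Batch 2 in all 3 classes, as for *Tbx5* in mural cells at 4.70 and 6.23. Without the batch term the calls of *Tbx2* in matrix fibroblasts and of *Tbx3* and *Tcf21* in mural cells were lost. DESeq2 and the fit without the batch term each left 3 calls in the last comparison, *Tbx4*, *Tbx5* and *Foxf2*.

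Against epithelium, the mean of the 3 mesenchymal classes was higher for all 8 members, beside 34.1% of all genes called in either direction. The folds ran from 2.60 (SE 0.58) for *Tbx3* to 5.67 (SE 0.48) for *Tbx4*. Epithelial levels were lower in Batch 2 than in Batch 1 for each gene, such as *Tbx3* at 0.52 and 0.035, and each fold was smaller within Batch 1 than within Batch 2 (*Tbx5*, 3.30 and 6.26). Immune cells, too, held less *Tcf21* in Batch 2, as given above; whether free RNA took part in the epithelial values was not tested.

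**Figure D3:**
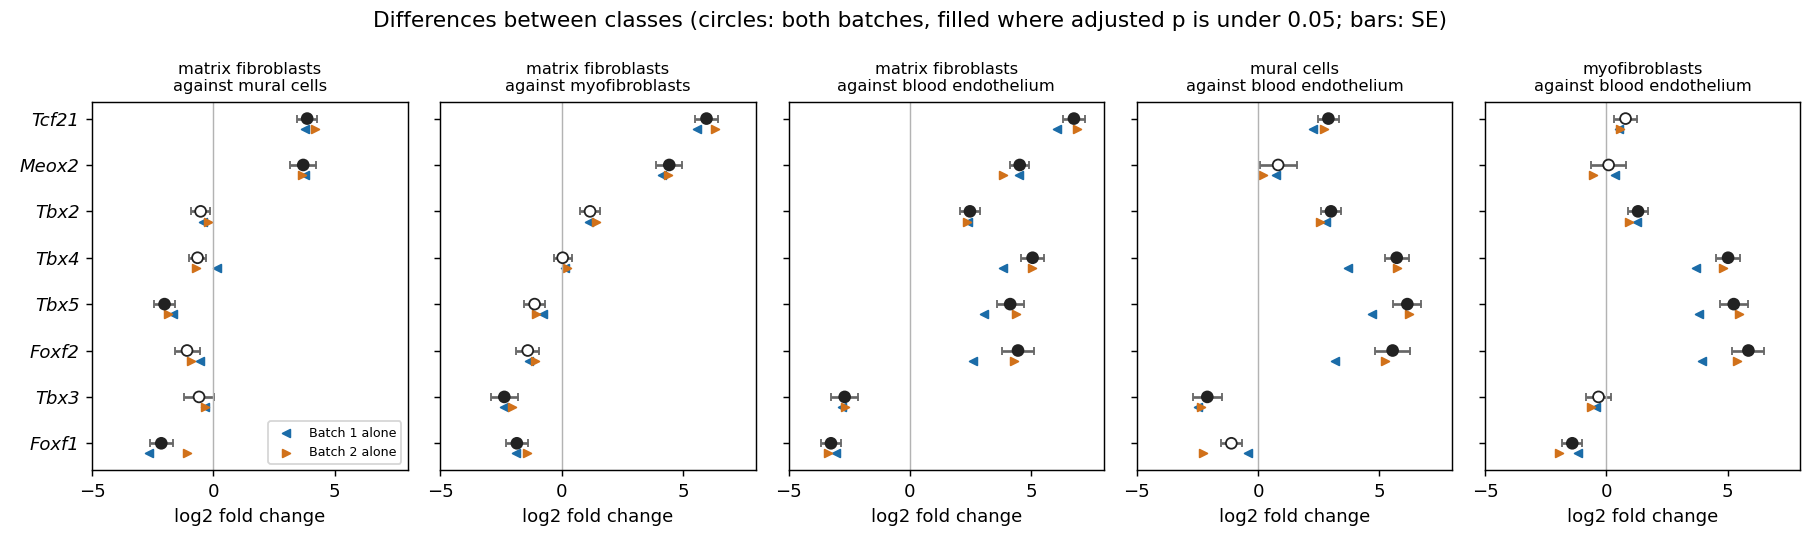
Log2 fold changes of the 8 genes in 5 comparisons of broad classes; circles give the fit over both batches with SE bars, filled where the adjusted p is under 0.05, and triangles the difference within each batch. *Tcf21* and *Meox2* lie to the right in all 3 comparisons of matrix fibroblasts, and *Foxf1* to the left.

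The genes most like each member were named by Pearson's r of log2(CPM + 1) over 32 sums, 16 finer classes in each batch, among 9719 genes. Points of a batch share a mouse and a library, and classes differ in depth, so r is a description. *Tbx4* and *Tbx5*, which are not neighbours in the genome, were each other's closest at 0.94, and *Foxf2* was next among the members, at 0.89 with each. *Tbx2* was closest to its neighbour *Tbx4* at 0.85. *Pth1r*, a parathyroid hormone receptor, was at 0.90 with *Tbx4*, and *Kcnj8*, a potassium channel of pericytes, at 0.87 with *Tbx5*.

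*Foxf1* was closest to *Fendrr*, which lies head to head with it, at 0.94, then to the endothelial genes *Tmem100* (0.90) and *Eng* (0.83). *Fendrr* was 8.17 and 7.23 in aerocytes, 4.75 and 5.80 in general capillary cells, 6.71 and 3.69 in myofibroblasts, 1.98 and 1.46 in pericytes and 0.41 and 0.36 in alveolar-type matrix fibroblasts. *Fendrr* was above *Foxf1* in aerocytes, general capillary cells and myofibroblasts (*Foxf1*, 2.96 and 0.73) in both batches, and pericytes held less *Fendrr* than *Foxf1* in Batch 1 and slightly more in Batch 2. *Tbx3* was closest to *Tfpi* (0.80), an inhibitor of coagulation made by endothelium, then to *Phldb1* (0.78) and *Foxf1* (0.77).

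*Tcf21* was closest to *Ifitm1* (0.85), *Lbh* (0.83) and *Olfml3* (0.81), and *Meox2* to *Cygb* (0.77), *Clec3b* (0.76) and *Tmem119* (0.76). No other member was among the first 3 of either. The lowest r between members was 0.07, for *Tcf21* and *Foxf1*.

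**Figure D4:**
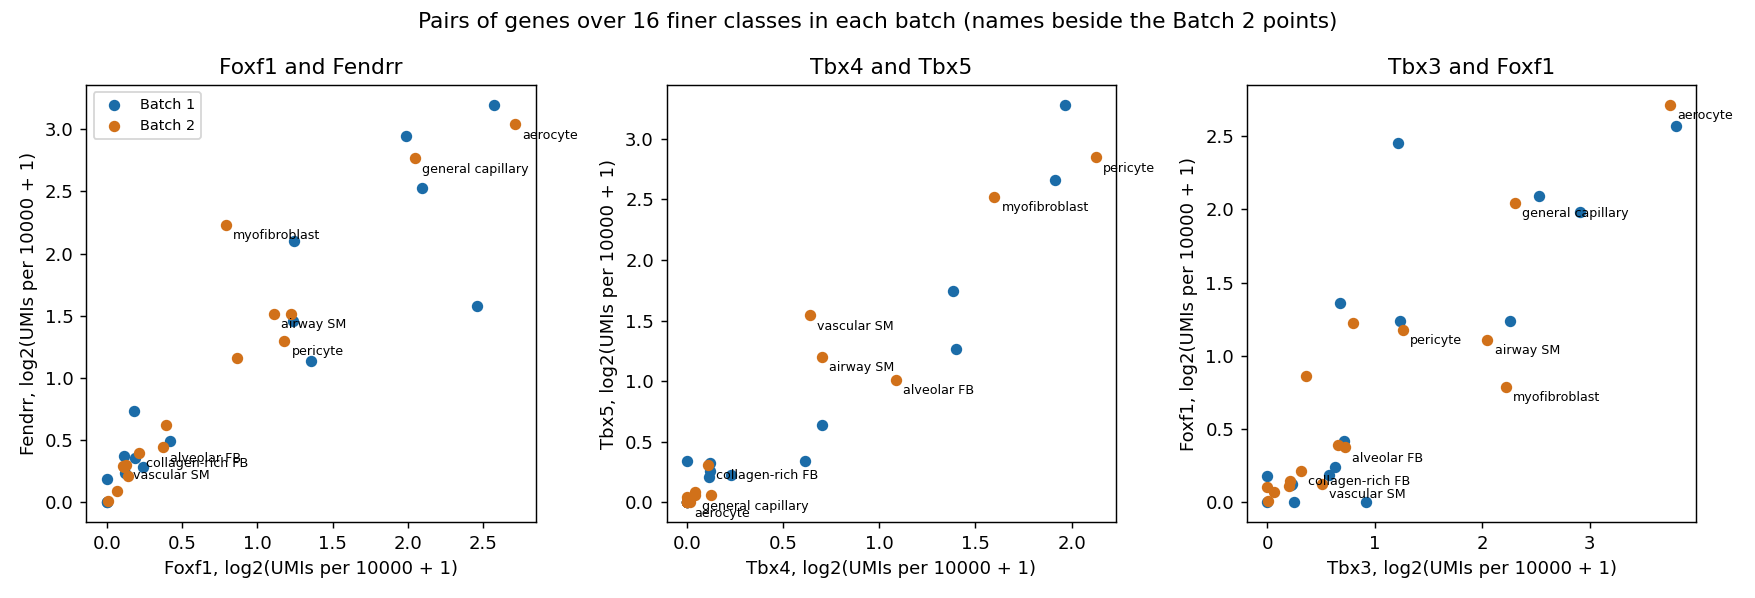
Pairs of genes over the 16 finer classes, with axes in log2 of UMIs per 10000 plus 1 and a point per class and batch. *Foxf1* and *Fendrr* are high together in capillary cells, *Tbx4* and *Tbx5* in pericytes and myofibroblasts, and *Tbx3* and *Foxf1* together in aerocytes.

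Within single classes, pairs were counted per cell against the number given by their shares in bins of equal depth. In general capillary cells, *Tbx3* and *Foxf1* were found together in 95 cells in Batch 1 and 313 in Batch 2, where the shares gave 87.1 and 285. In pericytes of Batch 2, *Tbx4* and *Tbx5* were found together in 47 cells, where the shares gave 42.7, and in Batch 1 in 11, where they gave 9.50. In the alveolar-type matrix fibroblasts the pair was found in 31 and 35 cells, where the shares gave 28.1 and 37.7, so the batches lay on either side. Counts this sparse describe these cells and are no evidence of joint control.

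Other factors of the mesenchyme were counted from a list of 42 genes, 31 of them tested. *Ebf1*, *Nr2f2* and *Wt1* of this list were also in the marker lists of pericytes, venous endothelium and mesothelium. Differences of such a marker that involve its own class follow in part from the naming of the classes. Against epithelium 22 were higher and 5 lower in mesenchyme (87.1% called, beside 34.1% of all genes; median log2 fold change 3.25, and -0.05 over all genes). *Hoxb5* (5.47, SE 0.52) and *Snai2* (5.22, SE 0.51), a repressor of epithelial genes, were among the higher, and *Sox9* (-2.96, SE 0.46), an epithelial tip and cartilage factor, among the lower. Between matrix fibroblasts and mural cells 4 were higher and 7 lower (35.5%, beside 9.48%; median -0.21, and 0.09 over all). *Mkx* was higher in matrix fibroblasts (6.20, SE 1.10), while *Ebf1* (-4.94, SE 0.36), *Nr2f1* (-2.95, SE 0.52) and the Notch target *Heyl* (-2.94, SE 0.40) were higher in mural cells. Between matrix fibroblasts and myofibroblasts 3 were higher and 5 lower (25.8%, beside 10.2%; median 0.04, and 0.02 over all), with *Snai2* at 2.35 (SE 0.42), *Nr2f2* at 1.51 (SE 0.29) and *Lef1*, an effector of Wnt signals, at -2.29 (SE 0.45).

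Against blood endothelium the same list had 16 higher and 7 lower in matrix fibroblasts, 15 and 5 in mural cells and 18 and 7 in myofibroblasts, with medians of 0.95, 0.98 and 1.84 (0.03, -0.07 and -0.02 over all genes). These were 74.2%, 64.5% and 80.6% of the list, beside 27.7%, 17.1% and 21.7% of all genes. *Gli1*, the readout of hedgehog signals that act on *Foxf1*, was at 5.40 (SE 0.62) in matrix fibroblasts, and *Klf4* at -3.84 (SE 0.41). *Heyl* (7.40, SE 0.55) and *Ebf1* (5.34, SE 0.37) led in mural cells. *Lef1* was at 4.67 (SE 0.55) and *Mef2c* at -3.43 (SE 0.60) in myofibroblasts. Between mural cells and myofibroblasts 6 were higher and 4 lower (32.3%, beside 6.03%; median -0.05, and -0.03 over all), and between the alveolar and collagen-rich types 2 and 6 of 28 (28.6%, beside 5.66%; median -0.32, and 0.20 over all), where *Ebf1* (-6.63, SE 0.61) and *Twist2* (-5.29, SE 0.98) were on the collagen-rich side.

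Signals and receptors known in the lung mesenchyme were a list of 32 genes, 24 tested. *Wnt2*, *Wnt5a*, *Fgf10*, *Fgf18*, *Hhip*, *Pdgfra*, *Pdgfrb* and *Sfrp2* of this list were also among the markers that named the classes. Differences of these markers that involve their own class follow in part from that naming. Where called, they also count in the shares below. Against mural cells, matrix fibroblasts had 11 higher and 2 lower (54.2% called, beside 9.48% of all genes; median 0.83), with *Fgfr4* at 5.53 (SE 0.85), *Fgf7* at 5.47 (SE 0.82), the growth factor receptor *Pdgfra* at 5.11 (SE 0.73) and the pericyte receptor *Pdgfrb* at -5.52 (SE 0.52). Against myofibroblasts 5 were higher and 8 lower (54.2%, beside 10.2%; median -0.21). *Fgf10*, the ligand that drives bud outgrowth, was at 5.29 (SE 0.75) and *Wnt2* at 3.83 (SE 0.61), while *Fgf18* was at -5.18 (SE 0.59). Against endothelium 14 were higher and 1 lower in matrix fibroblasts (median 2.47), 6 and 1 in mural cells (1.30) and 16 and 2 in myofibroblasts (2.57), where *Fgf18* (7.30, SE 0.70), *Fgf7* (6.70, SE 0.62) and *Wnt5a* (6.59, SE 0.51) led. These were 62.5%, 29.2% and 75.0% of the list, beside 27.7%, 17.1% and 21.7% of all genes. Mural cells against myofibroblasts gave 2 higher and 8 lower (41.7%, beside 6.03%; median -1.25), the alveolar against the collagen-rich type 5 and 1 (25.0%, beside 5.66%; median 0.03), and mesenchyme against epithelium 14 and 5 (79.2%, beside 34.1%; median 2.57), with *Etv5*, a target of FGF signals in epithelium, at -4.70 (SE 0.31).

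The other T-box, forkhead and MEOX genes were a list of 31, 15 of them tested in the broad fit and 13 in the finer fit. *Foxj1* was also a marker that named ciliated cells, so its difference against epithelium follows in part from that naming. Between mesenchyme and epithelium 8 were lower and the other 7 did not pass (53.3% called, beside 34.1% of all genes; median -0.81), and among the 8 were *Foxj1*, the factor of ciliated cells (log2 fold change -7.24, SE 0.56), and *Foxa2* (-5.39, SE 0.41). *Foxs1* was lower in matrix fibroblasts than in mural cells (-4.08, SE 0.79) and higher in mural cells than in endothelium (5.85, SE 0.90). *Foxq1* was higher in myofibroblasts than in endothelium (7.49, SE 0.70) and lower in matrix fibroblasts than in myofibroblasts (-3.52, SE 0.50). Of this list 2 were lower in matrix fibroblasts than in mural cells (13.3%, beside 9.48% of all genes) and 3 lower than in myofibroblasts (3 of 15, beside 10.2%), and 4 were higher and 4 lower than in endothelium (53.3%, beside 27.7%). Mural cells against endothelium gave 2 higher and 2 lower (26.7%, beside 17.1%), myofibroblasts against endothelium 3 and 2 (33.3%, beside 21.7%), and mural cells against myofibroblasts 1 and 2 (3 of 15, beside 6.03%). In the alveolar against the collagen-rich type 1 of 13 was lower, *Foxs1* (-5.75, SE 1.19), which is 7.69% beside 5.66%. With so few genes tested, a share near that of all genes is no result about this list.

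Of 6 RNA genes that lie beside the members, 2 were tested in the broad fit. *Fendrr* was lower in matrix fibroblasts than in mural cells (-1.39, SE 0.43), myofibroblasts (-2.86, SE 0.40) and endothelium (-3.65, SE 0.40), and lower in mural cells than in endothelium (-2.26, SE 0.41). For *Foxf1* the difference between mural cells and endothelium did not pass (-1.10, SE 0.44). *2610027K06Rik*, whose start lies 328 bases from that of *Tbx2* on the other strand, passed the test against endothelium in matrix fibroblasts and mural cells, but on few UMIs. It had 0 and 4 UMIs in endothelium, 13 and 16 in matrix fibroblasts and 2 and 13 in mural cells, so its folds are not given.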

How the data were processed

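Drop-seq was run on whole lung of 1 mouse in each of 2 batches. The authors aligned reads with Bowtie2 2.2.7 (1 alignment reported per read) to mm10 and deposited UMI counts per gene and cell from Drop-seq tools. Every cell had at least 500 detected genes, and cells over 10% mitochondrial UMIs were left out. Scanpy 1.11.5 made 44 Leiden clusters from 2500 genes, members left out; cells marked as doublets (13 and 118) were kept and left out as an alternative. Counts were summed per class and batch and tested with edgeR 4.0.16 (quasi-likelihood, TMM, R 4.3.3, Benjamini-Hochberg, adjusted p under 0.05) with batch as a term, since each batch is 1 animal (median correlation of deviations between classes 0.19, range 0.046 to 0.46, over 28 pairs). On simulated data for matrix fibroblasts against mural cells (9846 genes), 10.2% of changes of 1 and 46.7% of changes of 2 on the log2 scale were found. DESeq2 1.42.0 was an alternative. Named genes were the members, the 3 most alike for each and, per list and comparison, the called genes with the highest folds at 50 CPM or more. *Sox9* and *2610027K06Rik*, which is under that level, were chosen after their values were seen. Members and lists were chosen with earlier results of these data known. A share of detected cells came with exact binomial and a level with exact Poisson 95% intervals, and a count of 0 with a floor of 3 counts.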

Additional observations from a re-analysis of the deposited data

Results flagged for a closer look

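Cells outside the classes compared also held members, at levels above those of immune cells in the same batch. Left unnamed were 7 clusters, with 104 cells in Batch 1 and 196 in Batch 2. Those led by *Cenpf*, *Ager*, *Hip1* and *Areg* passed markers of several lineages, and the others had leading genes outside their markers. Of 89 such Batch 1 cells listed by the study, 24 were listed as MatrixFB-2 and 22 as mixtures of endothelium and epithelium. A further 15 were listed as mixtures of endothelium and fibroblasts, 14 as vascular endothelium and 6 as MatrixFB-1. Whether mixed cells gave the values here was not tested. The member highest in each cluster is given in UMIs per 10000, where it rests on more than 3 UMIs. In a cluster led by the cycling genes *Cenpf* and *Mki67* it was *Tbx3* at 5.84 in Batch 1 and *Tcf21* at 2.36 in Batch 2. *Tcf21* was 10.4 and 7.31 in a cluster led by *Igfbp2*, *Lox* and *Aspn* (11 and 53 cells). It was 14.8 and 9.90 in one led by *Hip1*, *Fn1* and *Ogn* (16 and 21 cells). In one led by *Areg* and *Srebf1* it was 19.8 and 6.93, from only 5 and 22 cells. *Tbx3* was 4.37 and 1.66 in a cluster led by *Ager* and *Hopx* (33 and 8 cells). A cluster led by *Zfp955a* and *Scarb1* held *Foxf1* at 4.68 in Batch 1, from 4 UMIs, and *Tbx3* at 2.19 in Batch 2. One led by *C3* and *Upk3b* held *Tbx4* at 1.35 in Batch 1. The 1940 cells of Batch 2 over the mitochondrial limit held *Tcf21* at 2.35, *Tbx3* at 0.984 and *Foxf1* at 0.753. Cells over the limit entered no comparison, and those of the unnamed clusters entered one only under alternatives that named the cells anew.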

How the results depend on the processing

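Of 64 values (8 members in 8 comparisons) 42 were called; 41 of these kept their direction under every alternative run, and 23 stayed past the threshold in every alternative that tested them. Of the 10 alternatives with a test, mural cells without vascular smooth muscle gave 32 of the 64 values and the fit of only the classes compared gave 61. Calls of the 8 members, main first, were as follows. Without the batch term (no replicate block) matrix fibroblasts against mural cells went from 4 to 1, against myofibroblasts from 4 to 2, mural cells against myofibroblasts from 2 to 0, myofibroblasts against endothelium from 5 to 3 and alveolar against collagen-rich fibroblasts from 5 to 0. DESeq2 gave 1 for mural cells against myofibroblasts, 3 for myofibroblasts against endothelium and 0 for alveolar against collagen-rich. A mitochondrial limit of 5% gave 0 for mural cells against myofibroblasts and 3 for alveolar against collagen-rich. Classes from marker scores gave 2 for matrix fibroblasts against myofibroblasts, 0 for mural cells against myofibroblasts and 0 for alveolar against collagen-rich. No filter on low counts gave 7 for matrix fibroblasts against myofibroblasts, a fit of only the classes compared gave 7 there and 4 for mural cells against myofibroblasts, and leaving out marked doublets gave 3 for alveolar against collagen-rich. Where 0 were called, an unadjusted p under 0.05 was reached in alveolar against collagen-rich by 6 members (DESeq2), 6 (edgeR without the batch term) and 5 (edgeR, marker scores), and in mural cells against myofibroblasts by 2 (edgeR without the batch term), 3 (edgeR, marker scores) and 3 (edgeR, limit of 5%). Signs turned for *Tbx4* in matrix fibroblasts against myofibroblasts (-0.045 with DESeq2, -0.0042 without doublets), for *Tcf21* (-0.60), *Meox2* (-1.16) and *Foxf2* (0.033) in mural cells against myofibroblasts with marker scores, for *Foxf2* there with pericytes alone (0.061, added after the data were seen) and for *Meox2* in myofibroblasts against endothelium with no filter (-0.016). Over all genes, calls without the batch term against the main ones were 461 and 988, 482 and 1062, 1882 and 2890, 252 and 628, 1478 and 2262 and 199 and 460 for matrix fibroblasts against mural cells, myofibroblasts and endothelium, mural cells against myofibroblasts, myofibroblasts against endothelium and alveolar against collagen-rich. The limit of 5% gave 589, 347 and 295 for matrix fibroblasts against mural cells, mural cells against myofibroblasts and alveolar against collagen-rich; marker scores gave 606 for matrix fibroblasts against myofibroblasts and 169 for alveolar against collagen-rich, and the fit of only the classes compared gave 1752 for matrix fibroblasts against myofibroblasts. Cause was not tested. The highest class of *Foxf2* in Batch 2 became mural with marker scores. Leaving out a mouse leaves no test. Without Batch 1, 24 of the 64 values moved from the fitted one by more than the SD of the within-batch values, and without Batch 2, 35 did. Within-batch values add a small count to each gene and scale each batch on its own, unlike the fit. A fitted value can therefore lie outside both, as for *Meox2* against epithelium (4.00, with 2.51 and 3.15 within batches). These moves do not tell a change of method from a change of mouse. Signs turned in 3 values, none called. *Tbx4* in matrix fibroblasts against mural cells was 0.13 within Batch 1 and -0.73 within Batch 2. Its Batch 1 level before TMM scaling was higher in mural cells, at 2.24 against 1.54 per 10000. The others were *Foxf1* in mural cells against myofibroblasts (0.75 and -0.34) and *Meox2* in myofibroblasts against endothelium (0.36 and -0.56). In 27 of the 42 called values the within-batch folds parted by over 1.5 times. These were all 8 against epithelium, all 5 between alveolar and collagen-rich, 12 against endothelium and 1 each (*Foxf1*, *Tcf21*) in matrix fibroblasts against mural cells and myofibroblasts. Depth limits *Foxf2* and *Meox2* outside their main class.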

Other observations

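The erythroid class was in the fit over all classes but in none of the comparisons, and leaving it out (added after the data were seen) changed no call of a member. It held *Tcf21* in 66.0% of its Batch 1 cells (7.74 UMIs per 10000) and 17.4% of its Batch 2 cells (1.21). Of its 42 listed Batch 1 cells, the study had listed 27 as MatrixFB-1 and 3 as MatrixFB-2. *Tbx2* (1.25 and 0.135) and *Meox2* (0.906 and 0.0449) were also lower in Batch 2 in that class.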
